A study of Mus musculus with 9 samples.

Results

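The solute carrier (Slc) genes encode membrane proteins that move amino acids, sugars, ions, metals, nucleosides, vitamins and metabolites across the plasma membrane or into organelles. Members were taken as every gene in the union of the 3 deposited tables whose symbol is Slc followed by a digit, which gave 159 of 8742 listed genes. RNA came from mouse esophageal epithelial organoids, cultures in which epithelial cells grow into small self-organised bodies, harvested on day 7 after seeding without treatment. The 9 libraries were 3 from wild-type organoids (WT), 3 labelled as Trp53 and Notch1 knockouts (PN) and 3 labelled as Trp53, Cdkn2a and Notch1 knockouts (PCN), so both edited groups share the labelled loss of Trp53 and Notch1. Strain, age, number of donor mice and number of edited clones are not named in the labels. Whether replicate libraries derive from different cultures or mice is not stated in the labels. P-values therefore measure only the spread between these libraries.

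Slc families are numbered by sequence relation, and members of one family often share a substrate. Some work alone, while others need a partner: Slc3a2 is the heavy chain that carries the Slc7 light chains to the cell surface. In a stratified epithelium such as the esophagus, basal cells take up nutrients from below for growth, and differentiating cells above them change their transport as they build the barrier. Amino acid carriers are known targets of the amino acid response, in which the transcription factor Atf4 is translated when amino acids are short.

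The authors listed in each table only what they had called for that pair (adjusted p under 0.05), so every member was already selected as changed in at least 1 pair, and a refit of the same libraries is not independent evidence. Of the 159 members, 118 stood in at least 2 tables and have values in all 9 libraries. GENCODE M21 names 371 protein-coding Slc genes, of which 42.9% were members, beside 36.9% of all protein-coding genes that were listed. The WT libraries held 14695420 to 15093994 counts each, those of PN 16857744 to 18912526, and those of PCN 17422590 to 20198041. Coordinates are those of the deposited tables (GRCm38). Levels are FPKM (fragments counted per transcript length and library total), which allows levels of different genes to be compared, and differences are log2 fold changes from edgeR's quasi-likelihood test, written as log2 value ± standard error (SE) with the adjusted p. Trp53 stood at 29.7 FPKM in WT, 0.645 in PN and 0.760 in PCN, and Notch1 at 17.2, 10.4 and 5.01. Cdkn2a RNA was higher, not lower, in the libraries labelled PCN (55.7 FPKM) than in WT (7.68) and PN (18.9). PN and PCN below therefore mean the libraries so labelled. The basal keratin Krt14 stood at 1115, 1118 and 1384 FPKM in the same order and the basal factor Trp63 at 57.9, 83.2 and 77.4. Of 5 basal markers fitted in PN against WT, 2 rose (Krt15 and Trp63) and 3 fell (Itga6, Itgb4 and Col17a1). In PCN against WT 4 of 5 rose and Itgb4 fell, and Krt15 had the largest rise in both (log2 1.29 ± 0.08, adjusted p = 5.2e-08, and log2 2.46 ± 0.09, adjusted p = 7.0e-11). Among markers of differentiated squamous epithelium, 8 of 9 had values in all libraries, and their summed level was 15254 to 16266 FPKM over the WT libraries, 2498 to 2650 over PN and 2798 to 2911 over PCN. All 8 fitted fell in PN and all 9 fell in PCN, beside 51.2% and 51.3% of all genes fitted. Of the columnar epithelium markers all 3 fitted fell in PN, while in PCN 3 of 4 fell and Krt8 rose (log2 1.31 ± 0.37, adjusted p = 0.011). Their part in the Slc results was not tested, and in bulk RNA fewer cells of a type and less RNA per cell cannot be told apart. None of 6 fibroblast markers or 5 muscle and glia markers was in a table, which shows only that none was called as changed, not that they were absent. Of 5 leukocyte markers only Cd68 was in a table, at 74.8 to 95.1 FPKM in WT and 12 to 21.5 in the edited groups. Of 5 endothelial markers only Esam was, at no more than 4.08 FPKM.

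Slc genes moved in both directions in every comparison. In PN against WT, 62 of 108 fitted members were higher and 46 lower, with a median log2 fold change of 0.34 beside -0.26 over all 6295 genes fitted. The authors had listed 38.1% of genes in that comparison, and 48.0% of the genes fitted here were called higher and 51.2% lower, so a call by itself says little about a listed gene. In PCN against WT, 57 of 104 were higher and 47 lower, with a median of 0.38 beside -0.28 over all genes (38.6% listed; 47.3% of those fitted called higher and 51.3% lower). In PCN against PN, 37 of 74 were higher and 35 lower, with a median of 0.01 beside 0.16 (24.5% listed; 51.0% called higher and 47.9% lower). The fit of all 9 libraries, which could take 62 members, called 22 higher and 29 lower there. The filter on low counts left out 7, 9 and 1 listed members in the same order, and 2 fitted members did not pass in PCN against PN. Changes past 2-fold were 14 rises and 18 falls in PN, and 19 of each in PCN, both against WT. In PN the rises past 2-fold were 13.0% of members beside 7.82% of all genes fitted, and the falls were 16.7% beside 21%. In PCN the rises were 18.3% beside 9.53%, and the falls 18.3% beside 21.8%.

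**Figure D1:**
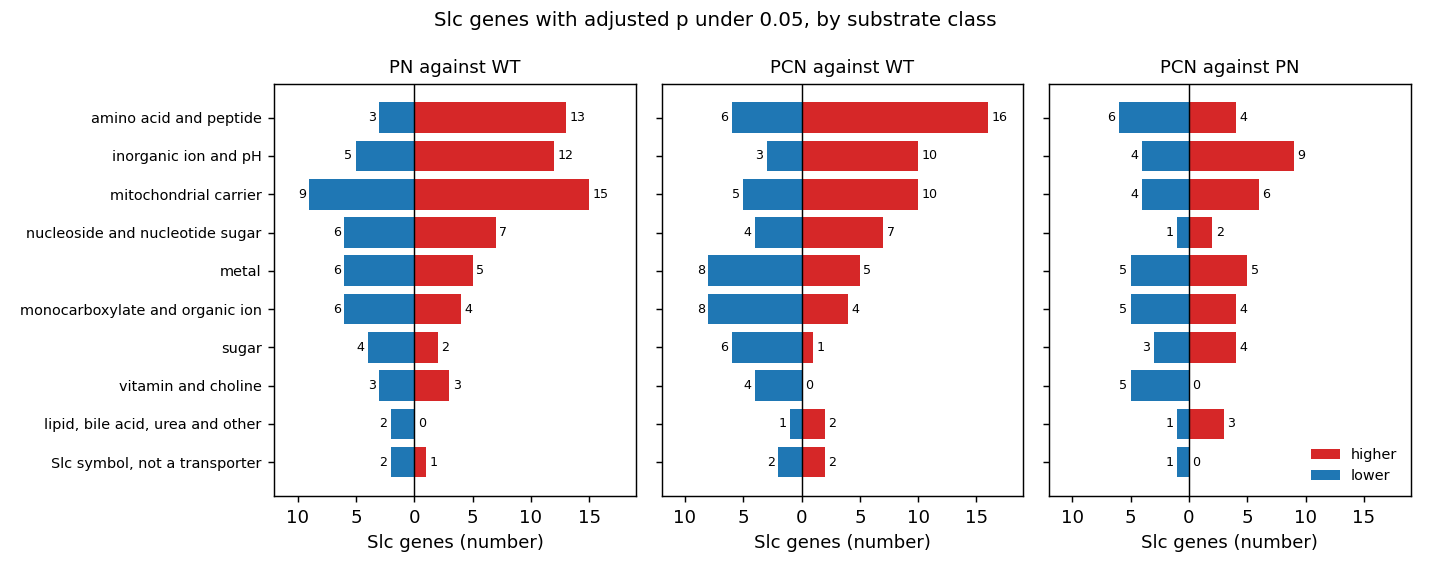
Number of Slc genes called higher (red, right) or lower (blue, left) at an adjusted p under 0.05 in each comparison, by substrate class. Amino acid and peptide carriers were higher in 13 and lower in 3 in PN against WT, and no vitamin or choline carrier was higher in PCN in either comparison. Of all genes fitted, 48.0% were called higher in PN against WT, 47.3% in PCN against WT and 51.0% in PCN against PN.

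The classes differed in their counts, and these differences were not tested. Over all genes fitted, 48.0% were called higher and 51.2% lower in PN against WT, and 47.3% and 51.3% in PCN against WT. Amino acid and peptide carriers were 13 higher and 3 lower of 16 in PN, and 16 higher and 6 lower of 22 in PCN, both against WT. Ion and pH carriers were 12 higher and 5 lower in PN and 10 higher and 3 lower in PCN. Sugar carriers had more falls than rises. They were 2 higher and 4 lower in PN, not far from the shares over all genes, and 1 higher and 6 lower in PCN. Vitamin and choline carriers were 3 higher and 3 lower in PN, and all 4 fitted were lower in PCN. Over the members with values in all libraries, the summed level of the 22 amino acid and peptide carriers was 352 ± 14 FPKM in WT, 460.4 ± 1.09 in PN and 371 ± 2.74 in PCN (SD, n = 3). The 13 metal carriers summed to 337 ± 3.69, 254 ± 3.87 and 235 ± 9.67 FPKM, and the 7 vitamin and choline carriers to 31.4 ± 2.14, 29.4 ± 1.82 and 16.5 ± 0.736. All 118 members together summed to 2458 ± 57.4, 2479 ± 42.7 and 2237 ± 20.6 FPKM. These sums were described and not tested.

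Symbols of the Slc7 family, mostly amino acid carriers, moved mostly upward against WT. All 6 fitted were higher in PN, 5 of 6 were higher in PCN, and 3 of 4 were lower in PCN than in PN. The counts against WT include Slc7a6os, which names no carrier and was called higher in both. Slc7a5, the light chain of the large neutral amino acid exchanger LAT1 (ENSMUSG00000040010, chromosome 8, 121881150 to 121907694), stood at 26.5, 28.3 and 34.9 FPKM in WT, 81.8, 80.3 and 82.9 in PN and 56.5, 61.1 and 56.2 in PCN. The 3 groups did not overlap, and PN was the highest. The rise was log2 1.46 ± 0.09 (adjusted p = 5.5e-08) in PN and log2 0.96 ± 0.10 (adjusted p = 3.4e-06) in PCN, and PCN was lower than PN (log2 -0.50 ± 0.05, adjusted p = 6.5e-10). Slc3a2, the heavy chain, stood at 161, 149 and 124 FPKM in WT, 178, 174 and 170.1 in PN and 142, 142 and 152 in PCN. It was highest in PN as well, but its WT libraries were spread and overlapped those of PCN. The rise in PN was log2 0.28 ± 0.09 (adjusted p = 0.024). That call was lost without WT replicate 2 (adjusted p = 0.060) or any 1 PN replicate (adjusted p up to 0.091), and without WT replicate 3 the log2 fold change was 0.18 (adjusted p = 0.015). In PCN against PN it fell (log2 -0.26 ± 0.04, adjusted p = 1.9e-05). Slc7a1, a carrier of lysine and arginine, rose in PN (log2 0.75 ± 0.07, adjusted p = 2.6e-06) and PCN (log2 0.56 ± 0.07, adjusted p = 3.4e-05), as did Slc7a6, another light chain (log2 0.66 ± 0.12, adjusted p = 6.8e-04, and log2 0.54 ± 0.12, adjusted p = 0.0028).

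Slc7a8, the light chain LAT2 (ENSMUSG00000022180, chromosome 14, 54722209 to 54781946), had a different order from Slc7a5. It stood at 24.2, 27 and 23.2 FPKM in WT, 30.5, 29.9 and 30.7 in PN and 14.5, 14.2 and 13.4 in PCN. PN was above WT and PCN below it, with no overlap. Against WT it rose in PN (log2 0.30 ± 0.07, adjusted p = 0.0046) and fell in PCN (log2 -0.82 ± 0.08, adjusted p = 2.3e-06), and PCN lay below PN (log2 -1.11 ± 0.05). Slc6a9, a glycine carrier, fell in PN (log2 -0.56 ± 0.08, adjusted p = 9.9e-05) and PCN (log2 -1.01 ± 0.08, adjusted p = 3.9e-07).

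Among named members of at least 1 FPKM in the higher group, the largest fall was that of Slc6a20a, a sodium-coupled carrier of proline and other imino acids (ENSMUSG00000036814, chromosome 9, 123634770 to 123678885). It stood at 5.14, 6.13 and 4.96 FPKM in WT, 0.305, 0.159 and 0.168 in PN and 0.327, 0.126 and 0.171 in PCN. Every edited library was far below every WT library, and PN and PCN overlapped. The fall was log2 -4.67 ± 0.22 (adjusted p = 2.9e-09) in PN and log2 -4.66 ± 0.24 (adjusted p = 3.0e-09) in PCN. Slc15a2, a proton-coupled peptide carrier of the plasma membrane (ENSMUSG00000022899, chromosome 16, 36750177 to 36784962), rose instead and stood at 0.862, 1.13 and 0.819 FPKM in WT, 3.36, 3.79 and 3.49 in PN and 5.78, 4.12 and 4.44 in PCN. No edited library overlapped WT. The rise was log2 1.93 ± 0.14 (adjusted p = 1.9e-07) in PN and log2 2.36 ± 0.16 (adjusted p = 1.0e-07) in PCN. PCN was above PN (log2 0.43 ± 0.11, adjusted p = 0.0064), a difference that was 0.27 (adjusted p = 0.032) without PCN replicate 1. Slc6a14, a carrier of neutral and basic amino acids, stood at 0.856, 0.476 and 0.984 FPKM in WT, 0.432, 0.240 and 0.524 in PN and 1.95, 2.01 and 1.36 in PCN. It was highest in PCN and rose there against both WT (log2 1.20 ± 0.27, adjusted p = 0.0026) and PN (log2 2.13 ± 0.25, adjusted p = 5.5e-08).

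**Figure D2:**
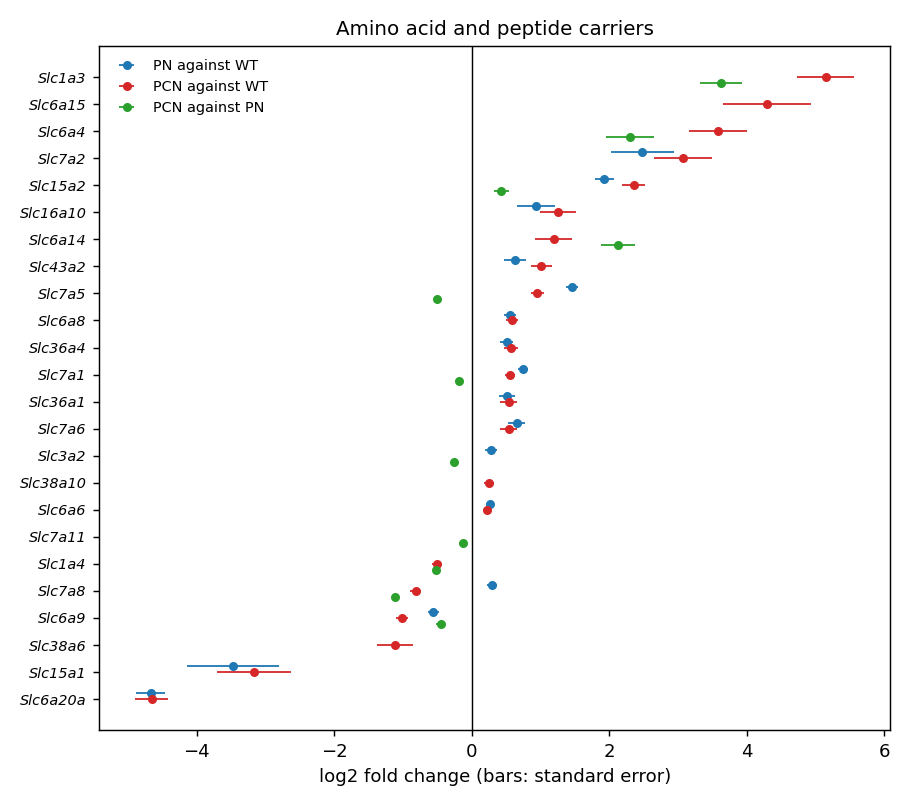
Log2 fold change (points) and its standard error (bars) of the 24 amino acid and peptide carriers fitted in at least 1 comparison, in PN against WT (blue), PCN against WT (red) and PCN against PN (green). A point is missing where the gene was not in that comparison's table or was left out as low, and Slc6a20a is the lowest, at -4.67 in PN and -4.66 in PCN against WT.

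The genes of the amino acid response and serine synthesis were read beside these carriers. In PN against WT, 6 of 8 fitted were higher and 2 lower, beside 48.0% and 51.2% of all genes fitted. In PCN against WT, 3 of 12 were higher and 9 lower, beside 47.3% and 51.3%. In PCN against PN none was higher and 13 of 14 were lower, beside 51.0% and 47.9%. Phgdh, the first enzyme of serine synthesis, stood at 68.1 ± 5.44 FPKM in WT, 134 ± 3.32 in PN and 95.3 ± 4.47 in PCN (SD, n = 3). Cbs, which makes cystathionine from serine and homocysteine, rose most in PN (log2 1.74 ± 0.22, adjusted p = 2.8e-05). The 2 that fell in PN were Sesn2 (log2 -1.12 ± 0.10, adjusted p = 1.4e-06) and Pycr1 (log2 -1.05 ± 0.17, adjusted p = 3.0e-04). Chac1, an enzyme that breaks down glutathione, fell most in PCN against PN (log2 -1.29 ± 0.17, adjusted p = 3.9e-07), and Atf4 itself fell there as well (log2 -0.35 ± 0.05, adjusted p = 8.9e-07). Atf4 was not listed in PN against WT, where 8 of the 16 genes of this list found in any table were listed. In these 2 comparisons Slc7a5 and Slc3a2 moved as most, but not all, of the fitted genes of this list did. They were higher in PN than in WT and lower in PCN than in PN. In PCN against WT, where 9 of 12 list genes fell, Slc7a5 rose instead and Slc3a2 was not listed. A common cause was not tested.

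To show where an amino acid response element could lie, promoter windows were searched for TGATGNAA, the core of the element that Atf4 and its partners bind, on both strands. RefSeq windows (GRCm38.p6, 250 bases before to 50 after each start) were found for 121 of 159 members. Of 154 member windows, 5 held the motif (3.25%), beside 3.97% of all 32851 windows. Those of Slc7a11, Slc1a4 and Slc23a3 are printed here, 5′ to 3′ on the gene's strand with the motif in capitals. Slc7a11 carries cystine, Slc1a4 carries alanine, serine and cysteine, and Slc23a3 is a relative of the ascorbate carriers, which does not show that it carries ascorbate. Slc1a4 was chosen for this after its values were seen. The stretches are chr3:50443614-50443733, chr11:20332710-20332829 and chr1:75133971-75134090, all on the minus strand.
Slc7a11: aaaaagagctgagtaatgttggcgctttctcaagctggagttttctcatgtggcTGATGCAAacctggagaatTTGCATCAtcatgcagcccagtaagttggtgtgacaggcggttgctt
Slc1a4: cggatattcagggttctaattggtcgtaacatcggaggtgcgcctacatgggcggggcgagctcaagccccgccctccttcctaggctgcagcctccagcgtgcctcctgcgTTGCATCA
Slc23a3: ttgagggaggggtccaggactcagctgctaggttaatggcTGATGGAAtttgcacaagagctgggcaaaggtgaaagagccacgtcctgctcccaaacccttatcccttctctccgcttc
In Slc7a11 the motif begins at -66 and, on the other strand, at -47, counted from the start of transcription. In Slc1a4 it begins at -4, on the other strand, and runs past the start of transcription. In Slc23a3 it begins at -160. Other motifs were searched in the same windows, and each was in a larger share of member windows than of all windows. The widest gaps were those of TGCGCNC, a form of the Mtf1 element (29.9% beside 15.4%), and ACGTG, the core of the HIF element (29.9% beside 19.6%). These shares were not tested. A match is a description of letters, and binding was not measured.

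Slc7a11, the cystine and glutamate exchanger (ENSMUSG00000027737, chromosome 3, 49892526 to 50443614), was in the table of PCN against PN only, so it has no WT value. It stood at 103, 110.4 and 116 FPKM in PN and 107, 98.7 and 96.3 in PCN. The groups overlapped, and the difference did not pass (log2 -0.13 ± 0.05, adjusted p = 0.051). It passed with TMM normalization (-0.16, adjusted p = 0.012) and without PN replicate 1 (-0.17, adjusted p = 0.012) or PCN replicate 1 (-0.17, adjusted p = 0.011). Slc1a4 (ENSMUSG00000020142, chromosome 11, 20302180 to 20332713) stood at 59.5, 60.5 and 60.9 FPKM in WT, 59.3, 60.2 and 62.6 in PN and 41.7, 44.7 and 40.9 in PCN. WT and PN overlapped and PCN was below both. The fall was log2 -0.50 ± 0.07 (adjusted p = 5.6e-05) against WT and log2 -0.52 ± 0.05 (adjusted p = 5.9e-10) against PN. Of the list of glutathione synthesis and use, 7 of 8 fitted genes fell in PCN against WT, beside 51.3% of all genes fitted. Among them was Gclc, the first enzyme of glutathione synthesis (153 ± 5.55 FPKM in WT and 48.0 ± 3.59 in PCN). A link to these carriers was not tested.

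Sugar carriers held several of the largest falls. Slc37a1, which exchanges glucose-6-phosphate for phosphate in the endoplasmic reticulum (ENSMUSG00000024036, chromosome 17, 31295483 to 31350696), stood at 5.23, 4.97 and 3.67 FPKM in WT, 0.294, 0.390 and 0.321 in PN and 0.533, 0.348 and 0.592 in PCN. Slc5a9, a sodium-coupled carrier of mannose and glucose (ENSMUSG00000028544, chromosome 4, 111875375 to 111902918), stood at 3.36, 3.15 and 1.85 FPKM in WT, 0.309, 0.148 and 0.275 in PN and 0.239, 0.244 and 0.269 in PCN. All edited libraries of both genes were below all WT libraries, and PN and PCN overlapped. Slc37a1 fell in PN (log2 -3.77 ± 0.21, adjusted p = 1.7e-08) and in PCN (log2 -3.22 ± 0.22, adjusted p = 4.7e-08). Slc5a9 fell by a like amount in PN (log2 -3.49 ± 0.29, adjusted p = 1.3e-06) and PCN (log2 -3.47 ± 0.26, adjusted p = 1.7e-07). Slc5a1, the sodium-glucose carrier SGLT1, fell in PN (log2 -1.92 ± 0.26, adjusted p = 5.6e-05) and was higher in PCN than in PN (log2 1.26 ± 0.26, adjusted p = 4.0e-04).

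Slc2a1, the glucose carrier GLUT1 (ENSMUSG00000028645, chromosome 4, 119108711 to 119137983), was among the most abundant members, at 282, 266 and 350.2 FPKM in WT, 246, 238 and 233 in PN and 264, 277 and 262 in PCN. WT replicate 3 was the highest library, and PN lay just below the other WT libraries. The log2 fold change in PN was -0.31 ± 0.09 (adjusted p = 0.015). It did not pass with TMM normalization (-0.24, adjusted p = 0.061) or without PN replicate 2 or 3 (adjusted p = 0.063 and 0.067), and it was -0.19 (adjusted p = 0.0082) without WT replicate 3. Slc2a4, the insulin-responsive GLUT4, was far less abundant and highest in PCN, at 0.519, 0.567 and 0.495 FPKM in WT, 0.785, 0.745 and 0.608 in PN and 1.38, 1.09 and 2.12 in PCN. It rose there against WT (log2 1.54 ± 0.29, adjusted p = 6.0e-04) and PN (log2 1.11 ± 0.23, adjusted p = 5.0e-04). Of the genes of glycolysis, lactate and carbonic anhydrases, 12 of 13 fitted fell in PN and 15 of 16 in PCN, both against WT. Of all genes fitted, 51.2% and 51.3% were called lower. Pgk1, a glycolytic kinase, fell in PN (log2 -0.72 ± 0.07, adjusted p = 3.4e-06) and PCN (log2 -1.04 ± 0.07, adjusted p = 4.2e-08).

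Carriers of monocarboxylates and organic ions split. Slc16a7, the lactate and pyruvate carrier MCT2 (ENSMUSG00000020102, chromosome 10, 125219270 to 125389465), rose and stood at 0.102, 0.201 and 0.140 FPKM in WT, 0.782, 0.647 and 0.755 in PN and 1.04, 1.09 and 1.04 in PCN. The groups were ordered WT, PN, PCN with no overlap. The rise was log2 2.84 ± 0.22 (adjusted p = 1.6e-07) in PCN and log2 2.31 ± 0.24 (adjusted p = 5.5e-06) in PN. Slc16a1, the related carrier MCT1, was more abundant and rose too (log2 0.57 ± 0.07, adjusted p = 4.0e-05 in PN, and log2 0.51 ± 0.08, adjusted p = 1.0e-04 in PCN). Carriers of this kind need a chaperone to reach the membrane. Of these, basigin (Bsg) fell from a WT level of 409.8 ± 21.7 FPKM to 288 ± 6.39 (PN) and 288 ± 7.22 (PCN). Embigin (Emb), the other chaperone, rose from 0.242 ± 0.0956 FPKM to 0.823 ± 0.116 and 2.19 ± 0.143.

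Slc16a11, a monocarboxylate carrier (ENSMUSG00000040938, chromosome 11, 70212752 to 70216417), fell against WT and stood at 90.8, 85.0 and 39.3 FPKM in WT, 28.1, 29.7 and 22.2 in PN and 20, 19.9 and 23.1 in PCN. WT replicate 3 lay far below the other WT libraries and still above all edited ones. The fall was log2 -1.42 ± 0.31 (adjusted p = 0.0087) in PN and log2 -1.77 ± 0.33 (adjusted p = 0.0073) in PCN, and without WT replicate 1 the fall in PN did not pass (-1.21, adjusted p = 0.074). PCN was called lower than PN (-0.34, adjusted p = 0.040), but the groups overlapped, and the call was lost in the fit of all 9 libraries (-0.34) and without PN replicate 1 or 2, or PCN replicate 1 or 2 (adjusted p = 0.066 to 0.19). Slc16a13, its neighbour on the chromosome (ENSMUSG00000044367, chromosome 11, 70216789 to 70221064), fell in both and by more in PCN (log2 -0.30 ± 0.08, adjusted p = 0.0067, and log2 -1.04 ± 0.08, adjusted p = 2.5e-07). Another run of neighbours, the organic cation and carnitine carriers Slc22a5, Slc22a21 and Slc22a4 (chromosome 11, 53864542 to 54028090), was lower in both edited groups against WT. Slc22a4 stood at 4.11, 4.61 and 3.92 FPKM in WT, 2.72, 2.24 and 2.94 in PN and 1.59, 1.53 and 1.79 in PCN, and the groups did not overlap (log2 -1.36 ± 0.17, adjusted p = 1.7e-05 in PCN against WT). Slc22a17, a receptor for the iron-binding protein lipocalin, rose in PCN against PN (log2 1.25 ± 0.17, adjusted p = 9.1e-06). It lies on chromosome 14, where 322 of 329 fitted genes rose in that comparison.

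**Figure D3:**
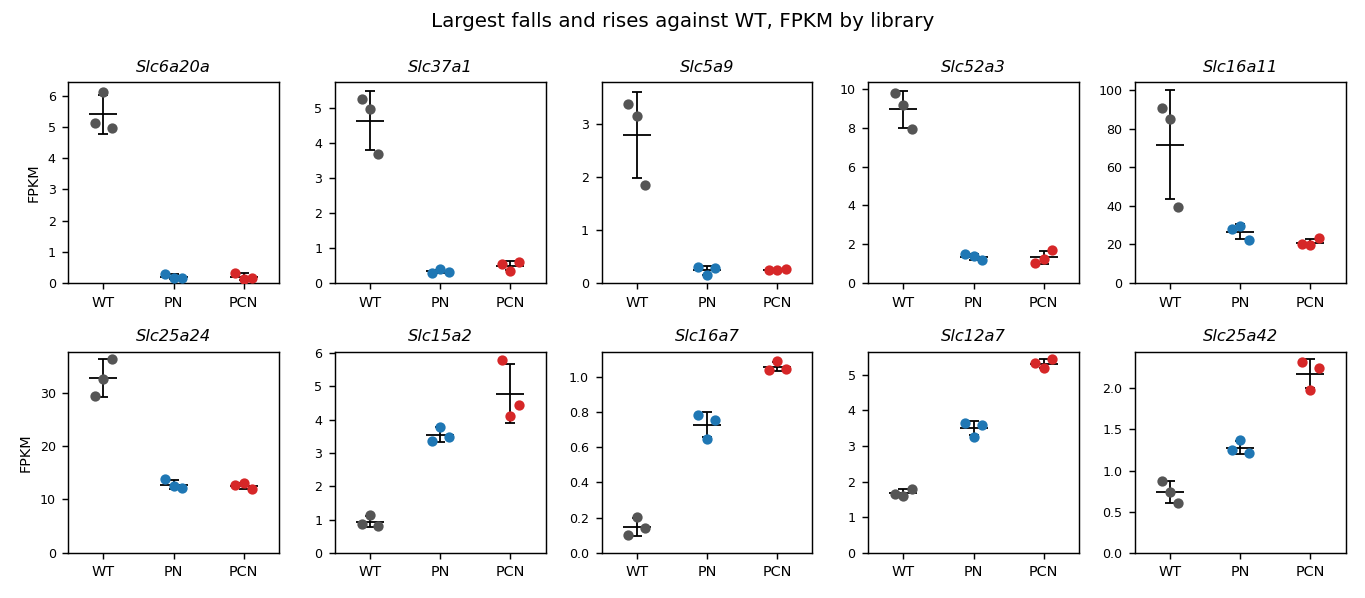
FPKM of 10 members with large changes against WT in each library (points, 3 per group, in WT, PN and PCN), with the mean and SD as bars. In the 6 genes that fell every edited library lies below every WT library, and in the 4 genes that rose every edited library lies above. The genes were chosen among members without overlap in at least 1 comparison, so this separation is in part a result of the choice.

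Ion carriers mostly rose. The chloride cotransporters of family 12 named here, which regulate cell volume, were higher in both edited groups than in WT. Over the whole family, 4 of 5 fitted were higher and 1 lower in PN, and all 3 fitted were higher in PCN. Slc12a7 (KCC4, ENSMUSG00000017756, chromosome 13, 73733094 to 73816754) stood at 1.67, 1.59 and 1.80 FPKM in WT, 3.66, 3.27 and 3.59 in PN and 5.34, 5.18 and 5.43 in PCN. WT, PN and PCN rose in that order with no overlap (log2 1.07 ± 0.10, adjusted p = 1.5e-06 in PN, and log2 1.66 ± 0.09, adjusted p = 3.6e-09 in PCN). Slc12a4 (KCC1) had the same order, at 10.2, 9.38 and 8.24 FPKM in WT, 16.7, 17.3 and 16.6 in PN and 19.6, 21.9 and 20.2 in PCN (log2 1.16 ± 0.09, adjusted p = 2.6e-07 in PCN). Slc12a2 (NKCC1), which brings chloride in, was highest in PN instead (log2 1.07 ± 0.10, adjusted p = 3.1e-06 in PN, log2 0.58 ± 0.11, adjusted p = 6.8e-04 in PCN, and log2 -0.48 ± 0.05, adjusted p = 1.9e-08 between PCN and PN). Slc26a6, an anion exchanger, rose in PN (log2 1.28 ± 0.24, adjusted p = 8.3e-04) and in PCN (log2 0.89 ± 0.24, adjusted p = 0.0087), and without PCN replicate 3 the rise in PCN did not pass (0.76, adjusted p = 0.057). The sodium-calcium exchanger Slc8a1, which has no WT value, was higher in PCN than in PN (log2 0.77 ± 0.18, adjusted p = 0.0017).

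Slc4a11, a proton-conducting relative of the bicarbonate carriers (ENSMUSG00000074796, chromosome 2, 130684113 to 130697519), had libraries close together within each group and far apart between the edited groups. It stood at 20, 20.3 and 20.3 FPKM in WT, 25.8, 27.4 and 27.5 in PN and 7.96, 8.21 and 7.56 in PCN. PN was above and PCN below every WT library, with an SD of 0.974 FPKM or less in each group. It rose in PN (log2 0.42 ± 0.07, adjusted p = 1.8e-04) and fell in PCN (log2 -1.35 ± 0.08, adjusted p = 7.3e-09). Between PCN and PN the difference was log2 -1.77 ± 0.06. Slc39a9, a zinc carrier of the Golgi and plasma membrane (ENSMUSG00000048833, chromosome 12, 80643883 to 80683342), had the same order, at 5.93, 6.54 and 7.10 FPKM in WT, 8.32, 8.0 and 8.11 in PN and 4.04, 4.41 and 4.08 in PCN. It rose in PN (log2 0.33 ± 0.08, adjusted p = 0.0048), fell in PCN (log2 -0.64 ± 0.09, adjusted p = 5.0e-05) and was lower in PCN than in PN (log2 -0.96 ± 0.06). Slc39a9 lies on chromosome 12 before 95 Mb, a stretch with 2 members, both lower in PCN than in WT (median log2 -0.88). A shift of the whole stretch was not tested. Slc39a9 shares 459 exon bases with Erh on the other strand, and whether counting used strand is not stated, so its level is uncertain. Slc4a11, Slc39a9 and Slc7a8 were the 3 members called higher in PN and lower in PCN. Because these calls chose them, their difference between PCN and PN is given with no test. No member was called lower in PN and higher in PCN.

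**Figure D4:**
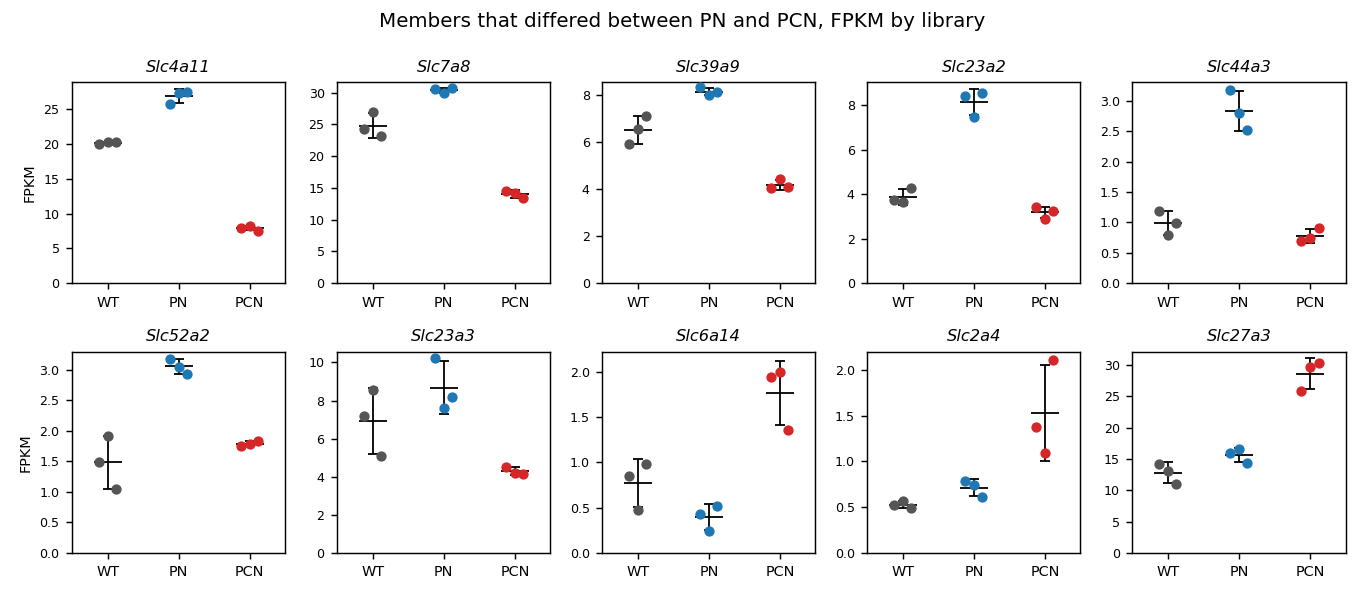
FPKM of 10 members that differed between PN and PCN in each library (points, 3 per group, in WT, PN and PCN), with the mean and SD as bars. Slc4a11, Slc7a8 and Slc39a9 lie above WT in PN and below WT in PCN, and Slc27a3, Slc2a4 and Slc6a14 are highest in PCN.

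Of 8 vitamin and choline carriers, the 5 listed in PCN against PN were all lower in PCN, beside 47.9% of all genes fitted. The other 3 were not listed and overlapped between the edited groups. Slc23a2, a sodium-coupled vitamin C carrier (ENSMUSG00000027340, chromosome 2, 132052496 to 132145108), stood at 3.71, 3.63 and 4.27 FPKM in WT, 8.43, 7.47 and 8.53 in PN and 3.41, 2.89 and 3.22 in PCN. PN was above all other libraries. It rose in PN (log2 1.08 ± 0.09, adjusted p = 9.6e-07) and was lower in PCN than in PN (log2 -1.36 ± 0.07, adjusted p = 7.9e-15). Slc44a3, a choline-like carrier (ENSMUSG00000039865, chromosome 3, 121459528 to 121532404), stood at 1.19, 0.794 and 0.996 FPKM in WT, 3.18, 2.81 and 2.52 in PN and 0.685, 0.738 and 0.913 in PCN. WT and PCN overlapped and PN was above both. It rose in PN (log2 1.52 ± 0.17, adjusted p = 1.2e-05) and fell in PCN against PN (log2 -1.86 ± 0.15, adjusted p = 2.2e-11). The riboflavin carrier Slc52a2 had that order too (log2 1.05 ± 0.18, adjusted p = 3.8e-04 in PN, and log2 -0.77 ± 0.11, adjusted p = 1.3e-06 between PCN and PN). Slc23a3, a relative of Slc23a2 counted in this class, stood at 7.18, 8.54 and 5.08 FPKM in WT, 10.2, 7.58 and 8.17 in PN and 4.52, 4.18 and 4.16 in PCN. PCN was below both other groups (log2 -1.01 ± 0.12, adjusted p = 6.3e-08 against PN). Slc46a1, the proton-coupled folate carrier, was lower in PCN than in PN (log2 -0.80 ± 0.13, adjusted p = 2.6e-05).

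Slc52a3, another riboflavin carrier (ENSMUSG00000027463, chromosome 2, 151996511 to 152009258), went against Slc52a2. It stood at 9.78, 9.15 and 7.93 FPKM in WT, 1.5, 1.38 and 1.20 in PN and 1.06, 1.24 and 1.71 in PCN. All edited libraries were below all WT libraries, and PN and PCN overlapped. The fall was log2 -2.71 ± 0.15 (adjusted p = 1.2e-08) in PN and log2 -2.74 ± 0.17 (adjusted p = 2.6e-08) in PCN. The thiamine carrier Slc19a2 fell in both as well (log2 -0.70 ± 0.10, adjusted p = 8.3e-05, and log2 -0.78 ± 0.10, adjusted p = 2.0e-05).

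Metal carriers were 5 higher and 6 lower in PN, near the shares over all genes fitted, and 5 higher and 8 lower in PCN, against WT. Slc39a6, an abundant zinc importer (ENSMUSG00000024270, chromosome 18, 24579881 to 24603817), stood at 116, 120.2 and 117 FPKM in WT, 72.0, 67.8 and 65.5 in PN and 77.3, 80.4 and 71.6 in PCN. It fell in PN (log2 -0.77 ± 0.07, adjusted p = 9.8e-07) and PCN (log2 -0.62 ± 0.07, adjusted p = 1.2e-05). The small difference between PCN and PN (0.16, adjusted p = 0.014) overlapped. It was lost with TMM normalization, in the fit of all 9 libraries, and without PN replicate 2 or 3 or PCN replicate 1 or 2 (adjusted p = 0.060 to 0.12). The copper carriers Slc31a2 and Slc31a1, which are neighbours (chromosome 4, 62262562 to 62391769), both fell in PN, Slc31a2 with log2 -1.33 ± 0.12 (adjusted p = 2.3e-06) and Slc31a1 with log2 -0.56 ± 0.09 (adjusted p = 2.1e-04). Slc39a11, another zinc carrier, fell in PN (log2 -0.90 ± 0.14, adjusted p = 1.6e-04). Slc48a1, a heme carrier of the lysosome, stood at 108, 104 and 87.9 FPKM in WT, 89.1, 88.7 and 88.6 in PN and 64.8, 70.7 and 66.7 in PCN, and PCN was below both other groups (log2 -0.57 ± 0.09, adjusted p = 1.2e-04 against WT). Slc11a2 (DMT1), which imports iron, rose in both (log2 0.40 ± 0.09, adjusted p = 0.0026, and log2 0.60 ± 0.09, adjusted p = 8.6e-05). Among other genes of metal handling, 5 of 9 rose and 4 fell in PN, and 6 of 12 rose and 6 fell in PCN, near the shares over all genes fitted. Heph, a copper-containing ferroxidase, rose most in PN, from 0.291 ± 0.0473 FPKM in WT to 16.8 ± 0.795, and Fth1, the ferritin heavy chain, fell from 2603 ± 298 to 1517 ± 27.1.

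The mitochondrial carriers of family 25 were the largest family, with 25 members. In PN 15 rose and 9 fell of 24, and in PCN 10 rose and 5 fell of 15, beside 48.0% and 47.3% of all genes fitted called higher. Slc25a5, the adenine nucleotide translocase that exchanges ADP for ATP (ENSMUSG00000016319, chromosome X, 36795651 to 36798807), was the most abundant member, at 298, 269.5 and 275 FPKM in WT, 403, 378 and 378 in PN and 297, 297 and 299 in PCN. PN was above WT and PCN, which overlapped. The rise in PN was log2 0.47 ± 0.07 (adjusted p = 1.1e-04), and PCN was below PN (log2 -0.38 ± 0.04, adjusted p = 2.8e-08). Slc25a3, the phosphate carrier, followed it with a rise of log2 0.24 ± 0.06 (adjusted p = 0.0081) in PN, which did not pass without PN replicate 1 (0.23, adjusted p = 0.051). Slc25a4, another translocase, rose in PN (log2 0.34 ± 0.09, adjusted p = 0.0078), and without WT replicate 2 it did not pass (0.30, adjusted p = 0.0501). Slc25a39, which brings glutathione into mitochondria, rose in PN (log2 0.37 ± 0.07, adjusted p = 7.0e-04) and PCN (log2 0.24 ± 0.07, adjusted p = 0.018), and the call in PCN was lost with a replicate block (0.24, adjusted p = 0.059) and without WT replicate 2, PCN replicate 2 or PCN replicate 3 (adjusted p = 0.065 to 0.084). It did not pass between PCN and PN (-0.12, adjusted p = 0.052), and did with TMM (-0.15, adjusted p = 0.0069) and with DESeq2 (-0.12, adjusted p = 0.039). Slc25a4 and Slc25a5 are close relatives, so reads that fit both could have been split between them.

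Larger changes in family 25 were found in less abundant members. Slc25a24, a calcium-dependent carrier of ATP-Mg and phosphate (ENSMUSG00000040322, chromosome 3, 109123149 to 109168457), stood at 29.4, 32.5 and 36.4 FPKM in WT, 13.7, 12.4 and 12.1 in PN and 12.7, 13.1 and 11.9 in PCN. Both edited groups were below WT and overlapped each other (log2 -1.35 ± 0.09, adjusted p = 1.1e-07 in PN, and log2 -1.38 ± 0.09, adjusted p = 3.6e-08 in PCN). Slc25a10, the dicarboxylate carrier (ENSMUSG00000025792, chromosome 11, 120491840 to 120499187), rose and stood at 18.5, 16.5 and 13.6 FPKM in WT, 38.3, 34.2 and 35.9 in PN and 34.3, 33.7 and 36 in PCN (log2 1.17 ± 0.10, adjusted p = 1.3e-06 in PN). Slc25a42, a carrier of coenzyme A (ENSMUSG00000002346, chromosome 8, 70184340 to 70212305), rose in steps, at 0.869, 0.738 and 0.608 FPKM in WT, 1.25, 1.37 and 1.22 in PN and 2.31, 1.98 and 2.24 in PCN. The 3 groups did not overlap (log2 1.56 ± 0.17, adjusted p = 5.4e-06 in PCN against WT, and log2 0.77 ± 0.12, adjusted p = 1.2e-05 between PCN and PN). Slc25a30 fell in PN (log2 -0.91 ± 0.10, adjusted p = 6.5e-06) and was higher in PCN than in PN (log2 0.65 ± 0.07, adjusted p = 4.5e-09). It lies on chromosome 14, where most genes moved in those directions.

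Carriers of nucleosides and nucleotide sugars were 7 higher and 6 lower in PN, near the shares over all genes fitted. Slc35f5 stood at 19.6, 18.3 and 20.4 FPKM in WT, 9.15, 9.28 and 10.1 in PN and 8.78, 8.56 and 8.30 in PCN, and both edited groups were below WT (log2 -1.02 ± 0.08, adjusted p = 6.9e-07 in PN, and log2 -1.18 ± 0.09, adjusted p = 1.1e-07 in PCN). Slc35d2, a carrier of nucleotide sugars into the Golgi, fell as well (log2 -1.04 ± 0.23, adjusted p = 0.0022 in PN, and log2 -1.25 ± 0.20, adjusted p = 2.2e-04 in PCN), and Slc35g1 fell in PN (log2 -0.90 ± 0.20, adjusted p = 0.0024). Among lipid carriers, the fatty acid carrier Slc27a4 fell in both (log2 -1.24 ± 0.08, adjusted p = 4.4e-08, and log2 -1.16 ± 0.08, adjusted p = 5.4e-08). Its relative Slc27a3 was highest in PCN, at 14.2, 13.1 and 11 FPKM in WT, 15.9, 16.6 and 14.4 in PN and 25.8, 29.7 and 30.3 in PCN (log2 1.16 ± 0.10, adjusted p = 8.0e-07 against WT).

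In the set, 4 symbols name no carrier. Slc9a3r1, a scaffold that anchors ion exchangers under the membrane, stood at 142, 133 and 113 FPKM in WT, 108, 105 and 107 in PN and 74.2, 72.2 and 82.7 in PCN. It was lowest in PCN (log2 -0.76 ± 0.09, adjusted p = 1.6e-05 against WT), and its smaller fall in PN (-0.27, adjusted p = 0.019) was lost with TMM (-0.20, adjusted p = 0.098) and without WT replicate 1 or 2 or any 1 PN replicate (adjusted p = 0.055 to 0.086). Its relative Slc9a3r2 fell in PCN (log2 -1.50 ± 0.40, adjusted p = 0.0083), and its fall in PN (-0.98, adjusted p = 0.030) was lost in the fit of all 9 libraries (adjusted p = 0.060) and without WT replicate 1 or 2 or PN replicate 2 or 3 (adjusted p = 0.078 to 0.14). Slc7a6os, a gene next to Slc7a6, rose in PCN (log2 0.44 ± 0.11, adjusted p = 0.0054) and in PN (0.35, adjusted p = 0.024). The call in PN was lost without PN replicate 1 (0.28, adjusted p = 0.14) or PN replicate 3 (0.37, adjusted p = 0.052). The fourth, Slc4a1ap, was listed in PCN against WT only and rose there (log2 0.39 ± 0.12, adjusted p = 0.015).

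Some members were near silent in 1 or 2 of the groups, and these were chosen after their values were seen. Slc29a4, a monoamine and nucleoside carrier, had 48 counts summed over WT, 1 over PN and 0 over PCN, which is at least 20-fold lower in PCN against a floor of 3 counts over the group. Slc34a2, a phosphate carrier, had 25 WT counts and 0 in either edited group, at least 9.75-fold lower in PN and at least 10.4-fold lower in PCN. Slc1a1, a glutamate carrier, had no WT count (0), but 20 in PN and 25 in PCN, at least 5.70-fold and at least 6.65-fold higher. It shares 2631 of its 6170 exon bases with 4430402I18Rik on the other strand, so these counts may belong to either gene. Slc39a4, an intestinal zinc importer, had 7 counts over WT, 3 over PN and 124 over PCN. PCN against PN gave a ratio of 38.8 with an exact 95% interval of 13.0 to 190.5 that covers counting error only. None of these reached 1 FPKM in any library.

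Chromosome 14 held 7 members and stood apart across all genes. In PN against WT, 17 of its 277 fitted genes were higher and 259 lower, and its Slc members were 1 higher and 4 lower. In PCN against PN, 322 of 329 were higher and 5 lower, and its Slc members were 5 higher and 1 lower. The members there include Slc25a30 and Slc22a17, named above. Slc7a8 was the member that went against the chromosome in both comparisons: it was higher in PN than in WT and lower in PCN than in PN. Without the chromosome 14 members, 61 were higher and 42 lower in PN, and 32 higher and 34 lower in PCN against PN.

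Levels of several named members may include reads of other transcripts. Exons of Slc1a1, Slc11a2, Slc4a1ap, Slc6a20a, Slc37a1, Slc44a3, Slc16a7, Slc12a4, Slc25a10, Slc2a1, Slc8a1, Slc48a1 and Slc6a9 overlap a transcript on the other strand. Carriers of the same superfamily under other symbols moved in both directions too, with 9 higher and 8 lower of 17 in PN and 8 higher and 6 lower of 14 in PCN. Among them Spns2, which exports sphingosine-1-phosphate, fell from a WT level of 26.0 ± 4.60 FPKM to 2.53 ± 0.247 (PN) and 1.44 ± 0.429 (PCN). ABC transporters, the pumps driven by ATP, were 9 higher and 10 lower of 19 in PN, and 6 higher and 10 lower of 17 in PCN. Over all genes fitted, 48.0% were called higher and 51.2% lower in PN, and 47.3% and 51.3% in PCN.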

How the data were processed

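RNA-seq was made from 9 organoid libraries, 3 per group. For every pair of groups the authors deposited a table (3 in all) of the genes they had called, at an adjusted p-value under 0.05. Per the file headers, the tables give raw counts, normalized counts (a normalized signal scaled by size factors), FPKM values, the authors' log2 fold change and p-values. Per the submitters' processing notes, CASAVA, DESeq and the GRCm38 (mm10) build were used. For the aligner, counter, annotation and strandedness, the sources used here give nothing. FPKM values were used as the authors deposited them. The authors' log2 fold changes and p-values were used only to recover settings and were not retested.

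The library totals and size factors were recovered from the deposited counts, FPKM and normalized signal. The counts were tested per pair with edgeR 4.0.16 (quasi-likelihood F test, R 4.3.3) using these as offsets, after a filter on low counts within each pair. P-values were adjusted by Benjamini-Hochberg over the number of genes the authors had adjusted over, recovered from their p-values as 17165 for PN with WT, 17300 for PCN with WT and 14758 for PCN with PN. This number followed exactly from 93.1%, 93.6% and 91.9% of listed genes. The SE is the log2 fold change divided by the square root of F. The script was tested on simulated data. Intervals on counts are exact and cover counting error only. Alternatives were TMM, library totals, DESeq2 1.42.0, no filter, a replicate block, 1 fit of all 9 libraries, adjustment over fitted genes, each replicate left out and chromosome 14 left out. In PN against WT same-numbered libraries deviated from their group means together (correlations 0.159, 0.109 and 0.175). In PCN against WT, however, PCN replicate 3 and WT replicate 1 reached 0.243 with different numbers. The labels name no shared source, so these correlations do not settle a pairing. The main tests took the libraries as unpaired, and the replicate block was an alternative only.

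Members and lists were chosen with earlier results of these data known. Members were named with values when they were among the 8 largest rises or falls of a comparison, the 10 most abundant, or the 3 largest changes of a class, with an adjusted p under 0.05, at least 1 FPKM and no overlap, or moved in opposite directions against WT. A member that this rule names is not reported here. For members named by the size of a change, the lack of overlap in that comparison was part of the choice and is not a separate result. In other lists up to 3 genes with the largest changes were named. Slc1a4, Slc6a9, Slc7a1, Slc7a6, Slc11a2, Slc16a1, Slc16a13, Slc19a2, Slc22a5, Slc22a21, Slc31a1, Slc4a1ap, Phgdh, Atf4, Gclc, Pgk1, Bsg, Fth1 and Spns2, where outside that rule, were chosen after their values were seen. Motifs were searched in RefSeq promoter windows of GRCm38.p6.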

Additional observations from a re-analysis of the deposited data

Results flagged for a closer look

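In 3 members the edited groups differed from WT in opposite directions, higher in PN and lower in PCN. They were picked by these 2 calls, which fix the direction between PCN and PN, so that difference is a description with no test. The log2 fold change of PCN against PN was -1.765 for Slc4a11, a proton-conducting membrane protein, -1.112 for Slc7a8, the amino acid exchanger LAT2, and -0.9649 for Slc39a9, a zinc carrier. Every PCN library of each gene was lower than every PN library. Whether the stretch of chromosome 12 that holds Slc39a9 moved as a whole was not tested. Against WT, the rises in PN kept an adjusted p of at most 0.0025, 0.025 and 0.027 in the same order over the alternatives run (edgeR's quasi-likelihood test or DESeq2), and the falls in PCN of at most 7.6e-07, 7.7e-05 and 0.00069. These are refits of the same libraries for the calls that picked the genes. They show only how far the calls depend on the settings and are not further evidence.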

How the results depend on the processing

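Of 84 counts of Slc genes recomputed under other settings, 83 stayed within 1.5 times the value reported. The exception was the number higher in PCN than in PN, which was 22 in the fit of all 9 libraries, where 62 members could be fitted in place of 74. Leaving out each replicate in turn gave 57 to 63 higher and 41 to 48 lower in PN against WT, 49 to 58 and 48 to 50 in PCN against WT, and 32 to 36 and 33 to 36 in PCN against PN. With the replicate number as a block, 62 were higher and 46 lower in PN against WT, 55 and 46 in PCN against WT, and 36 and 34 in PCN against PN. In the last 2 comparisons the same-numbered libraries did not deviate together (correlations -0.255 to -0.109 and -0.152 to -0.073). Whether libraries of any comparison share a source is not known. Of 1450 values of named genes under the alternatives, 1402 kept their direction and their side of the threshold, 40 no longer passed, 8 newly passed and none reversed. The tables hold only genes already called, so members that did not change are not analysed here, and 3 libraries per group limit the precision of small differences.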
